A study of Mus musculus with 12 samples.

Results

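The inflammatory chemokines described here are Cxcl9, Cxcl10, Cxcl1, Cxcl2, Cxcl16, Cx3cl1, Ccl2 and Ccl7, which are 8 of the 32285 genes counted. They were taken by symbol as a named family, with no threshold on a measured value, though the family was picked with earlier results of these data known, and each symbol matched 1 row of the gene lists. Their messenger RNA was counted in single cells of mouse lymph node from 12 libraries. The questions put to the data were which cells held these transcripts, and how the levels stood at day 3 and day 7 of a skin inflammation in each genotype label.

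All mice were C57BL/6, 7 to 10 weeks old, ATG12 fl/fl, which means that both copies of the autophagy gene Atg12 were floxed, and all received tamoxifen, controls included. Cre-positive mice also carried CDH5 CreER, a tamoxifen-activated recombinase under an endothelial promoter, and Cre-negative mice lacked it. Oxazolone, a contact sensitiser, was applied to the abdomen (50 µl at 4% in acetone and olive oil) with nodes collected 3 or 7 days later, and vehicle mice received the solvent alone. Digested nodes were split with CD45 beads, so that each of the 6 groups (2 labels by 3 treatments) gave 1 library named CD31, from the bead-negative cells, and 1 named CD45, from the bead-positive cells. The labels do not say how many mice went into a library. Each group is thus 1 library per fraction, and every p-value below measures only the spread between these libraries, which may be technical. The counted 3-prime end of Atg12 does not test the deletion, and in blood endothelial-like cells Atg12 was not lower under the Cre-positive label: it stood at 60.2 to 74.2 CPM (a gene's UMIs per 1000000 UMIs of the cells summed, where a UMI marks 1 captured molecule) in the 3 Cre-positive and 46.1 to 52.6 CPM in the 3 Cre-negative libraries. A feature named mRFP, counted in 4 of the CD31 libraries, had 364, 930 and 342 UMIs in the 3 Cre-positive libraries and 0 in the Cre-negative day 7 library. Directions by label rest on the genotype given for each library.

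The libraries held 36724887 to 76186801 UMIs, and 89054 cells passed the filters, 5698 to 10553 in each library. Clusters were named from marker genes as "-like" classes. In the CD31 libraries, cells with blood endothelial markers made up 44.3% to 61.0% and cells with lymphatic endothelial markers 4.55% to 16.8%, beside T cell-like (10.8% to 15.3%) and B cell-like cells (9.78% to 16.3%). In the CD45 libraries, 15.8% to 26.02% of cells were fibroblast-like, led by Col1a1, Col3a1 and Dcn, which goes against the immune cell type in their labels. An unnamed cluster with mixed genes held 21.5% of the Cre-positive day 3 CD31 library and at most 6.28% of the other CD31 libraries. Any pair of libraries shared at most 28 cell barcodes, and, in a different pair, at most 0.384% of the barcodes of the smaller library. Free RNA, read from barcodes of 10 to 100 UMIs and scaled by endothelial (CD31) or fibroblast (CD45) genes in B cell-like cells, was estimated at 0.650% to 2.40% of the UMIs in cells. The share of cells with a Y-linked UMI was 68.2% and 73.4% in the Cre-positive vehicle libraries, the reference of every Cre-positive ratio over vehicle, and 19.4% to 45.8% in the others, so the mix of sexes differed, and its part in the results was not tested.

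Chemokines are small secreted proteins that guide leukocytes through G protein-coupled receptors. The family falls into pairs: Cxcl9 and Cxcl10 are interferon-induced ligands of Cxcr3, found on activated T cells and NK cells; Cxcl1 and Cxcl2 bind Cxcr2 and draw neutrophils; Ccl2 and Ccl7 bind Ccr2 and draw monocytes. Cxcl16 and Cx3cl1 are made as transmembrane proteins that can be shed, and bind Cxcr6 and Cx3cr1. In a draining node such chemokines can be displayed on the walls of high endothelial venules (HEV), the vessels through which lymphocytes enter.

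Most of the genes lie beside their partner. In GENCODE M21 on GRCm38, Cxcl1 (chr5:90891241-90893115, plus strand) and Cxcl2 (chr5:90903871-90905938, plus strand) are 10755 bases apart. Cxcl9 (chr5:92321347-92328079) and Cxcl10 (chr5:92346638-92348889), both on the minus strand, are 18558 bases apart, and Ccl2 (chr11:82035571-82037453) and Ccl7 (chr11:82045712-82047525), on the plus strand, are 8258 bases apart. No protein-coding gene lies wholly between the members of any of these pairs, though Art3 (from 92331827 on chromosome 5) covers most of the stretch between Cxcl9 and Cxcl10 and Gm17268 (to 82038562 on chromosome 11) reaches past the end of Ccl2. Cxcl16 lies at chr11:70453983-70459984 on the minus strand and Cx3cl1 at chr8:94772009-94782427 on the plus strand. Art3 overlaps Cxcl10, Zmynd15 overlaps Cxcl16 and Gm17268 overlaps Ccl2, each on the other strand, and the handling of strand was not given in the sources used here. Reads of these pairs may therefore not be fully separated, and Art3 stood at 4.02 to 13.3 CPM in HEV-like cells and 23.8 to 45.4 CPM in all blood endothelial-like cells.

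The promoters of both neighbouring CXC pairs are shown because these neighbours differed in their sources and in their day 3 levels in the results below. RefSeq promoters (GRCm38.p6) were matched for 5 of the 8 genes, and the 250 bases before the annotated start are printed 5′ to 3′ on the gene's strand, at chr5:92328080-92328329 (minus strand) for Cxcl9, chr5:92348890-92349139 (minus strand) for Cxcl10, chr5:90890995-90891244 (plus strand) for Cxcl1 and chr5:90903649-90903898 (plus strand) for Cxcl2. Capitals mark matches to the core of the interferon-stimulated response element (ISRE; GAAA, any 2 bases, GAAA) and to the NF-kB consensus, searched on both strands in the window from 250 bases before to 50 bases after the start.
Cxcl9: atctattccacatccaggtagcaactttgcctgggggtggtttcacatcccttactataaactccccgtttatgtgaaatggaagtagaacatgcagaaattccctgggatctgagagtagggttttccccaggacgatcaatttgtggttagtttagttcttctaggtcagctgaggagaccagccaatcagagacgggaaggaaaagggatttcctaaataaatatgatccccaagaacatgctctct
Cxcl10: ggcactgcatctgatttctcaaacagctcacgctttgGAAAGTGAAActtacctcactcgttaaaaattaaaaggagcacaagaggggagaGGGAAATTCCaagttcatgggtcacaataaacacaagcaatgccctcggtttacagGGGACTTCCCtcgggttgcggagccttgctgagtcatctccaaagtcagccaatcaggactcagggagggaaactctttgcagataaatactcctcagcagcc
Cxcl1: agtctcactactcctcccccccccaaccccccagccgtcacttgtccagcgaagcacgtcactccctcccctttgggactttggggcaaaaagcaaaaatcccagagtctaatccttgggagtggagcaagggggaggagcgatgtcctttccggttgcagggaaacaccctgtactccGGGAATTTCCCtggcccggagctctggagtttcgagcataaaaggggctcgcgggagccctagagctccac
Cxcl2: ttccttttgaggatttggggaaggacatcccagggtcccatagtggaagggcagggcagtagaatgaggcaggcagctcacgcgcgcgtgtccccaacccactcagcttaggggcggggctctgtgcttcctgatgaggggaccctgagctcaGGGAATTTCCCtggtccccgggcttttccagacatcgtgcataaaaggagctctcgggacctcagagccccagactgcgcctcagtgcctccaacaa
The Cxcl10 promoter held 1 ISRE core, GAAAGTGAAA, at -213 (positions give the first base of a match, with the start at 1), and 2 NF-kB matches, GGGAAATTCC at -159 and GGGACTTCCC at -103, with a match to AP-1 (TGANTCA) at -74. Cxcl1 and Cxcl2 held the same NF-kB letters, GGGAATTTCC, at -71 and -97, each overlapped by a match on the other strand. The Cxcl9 window held neither of the capitalised motifs, and its AP-1 match began at 32, after the start. Of all 32851 RefSeq promoters of this length, 3.44% held the ISRE core, 4.51% the NF-kB consensus, 7.81% the AP-1 motif and 8.30% the motif TTCNNNGAA (GAS), which none of the 5 matched promoters held. These are letter matches and not measured binding sites.

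The transcripts came mainly from endothelial and fibroblast-like cells, and less from the lymphocytes that made up most of the CD45 libraries. T cell-like cells held 1445 (CD31) and 2030 (CD45) of the 29641 Cxcl10 UMIs. Blood endothelial-like cells, 26.7% of all cells, held 51.6% of the Cxcl9 UMIs, 46.3% of Cxcl1, 32.5% of Cxcl10, 30.1% of Cxcl2 and 75.1% of Cx3cl1. Fibroblast-like cells, 9.69% of all cells, held 84.4% of Ccl7, 65.9% of Ccl2, 59.9% of Cxcl16 and 39.6% of Cxcl1. Lymphatic endothelial-like cells held 21.96% of Ccl2 and 18.3% of Cxcl10, from 5.33% of cells. Smaller classes held shares far above their cell numbers: CD45 phagocyte-like cells (1.15% of cells) had 11.8% of Cxcl9, CD45 migratory dendritic-like cells (1.03%) had 16.4% of Cxcl16, and neutrophil-like cells (0.126% in the CD31 and 0.0910% in the CD45 libraries) had 10.9% and 15.7% of Cxcl2. These shares depend on how many cells of each class were sorted, so they describe the libraries and not the intact node. B cell-like cells, a class that should lack these genes, held at most 10.1 CPM of Cxcl10 and at most 2.66 CPM of the others, with a median over 12 libraries of at most 1.23 CPM for any of the 8.

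**Figure D1:**
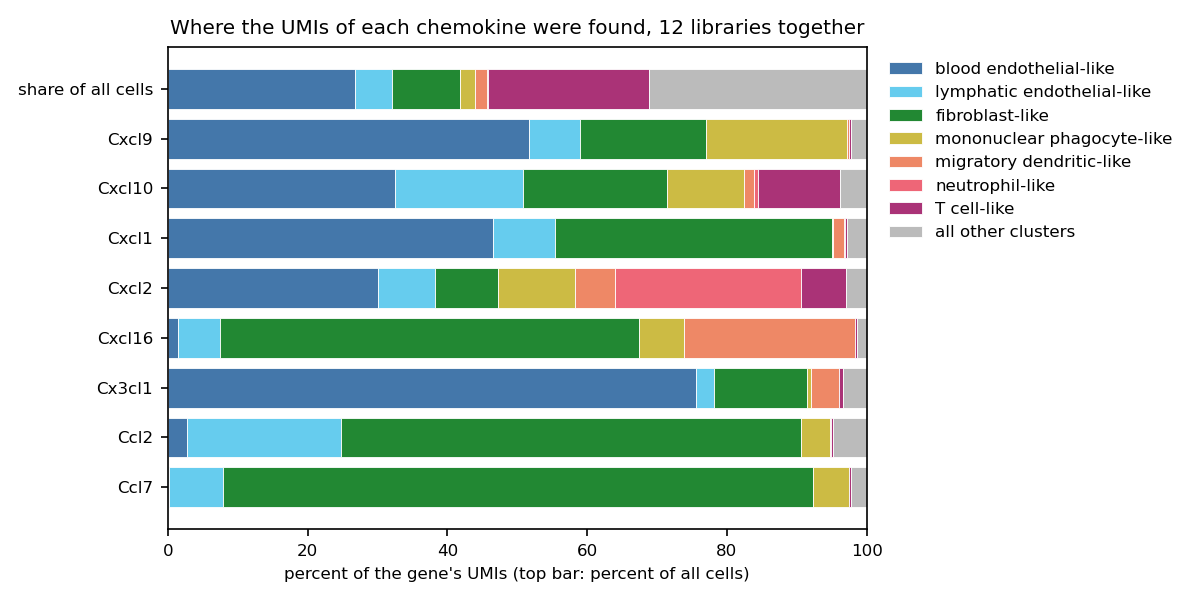
Stacked bars show the percent of each chemokine's UMIs found in each cell class over the 12 libraries together, and the top bar shows the percent of all 89054 cells in each class. Blood endothelial-like cells (dark blue) lead for Cxcl9, Cxcl10, Cxcl1, Cxcl2 and Cx3cl1, and fibroblast-like cells (green) lead for Cxcl16, Ccl2 and Ccl7.

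Within these classes the level depended on the cluster. By the median CPM over the 6 libraries of a fraction, which weights libraries equally, Cxcl9 reached 744 and 391 CPM in the capillary-like clusters, 662 in conventional dendritic 1-like cells and 553 in Ccl19-high fibroblast-like cells. The capillary-like clusters had only 9.51 and 14.6 CPM of its neighbour Cxcl10, which stood highest in Ccl20-high lymphatic-like cells (316), followed by Lyve1-high lymphatic-like (151) and macrophage-like cells (150.4). HEV-like cells, named from Glycam1, Fut7 and other venule markers, led for Cxcl1 with 438 CPM, followed by Ccl20-high lymphatic-like (358) and Igfbp3-high fibroblast-like cells (358). Cx3cl1 was highest in arterial-like cells among the blood endothelial clusters, at 92.1 CPM against 2.35 in HEV-like cells. Ccl2 stood at 382 CPM in Ccl19-high fibroblast-like and 213 in Ackr4-high lymphatic-like cells, and Ccl7 at 207 in Mgp-high and 192 in Igfbp3-high fibroblast-like cells. Clusters were formed without these 8 genes, but a cluster against the rest is a description and was not tested.

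**Figure D2:**
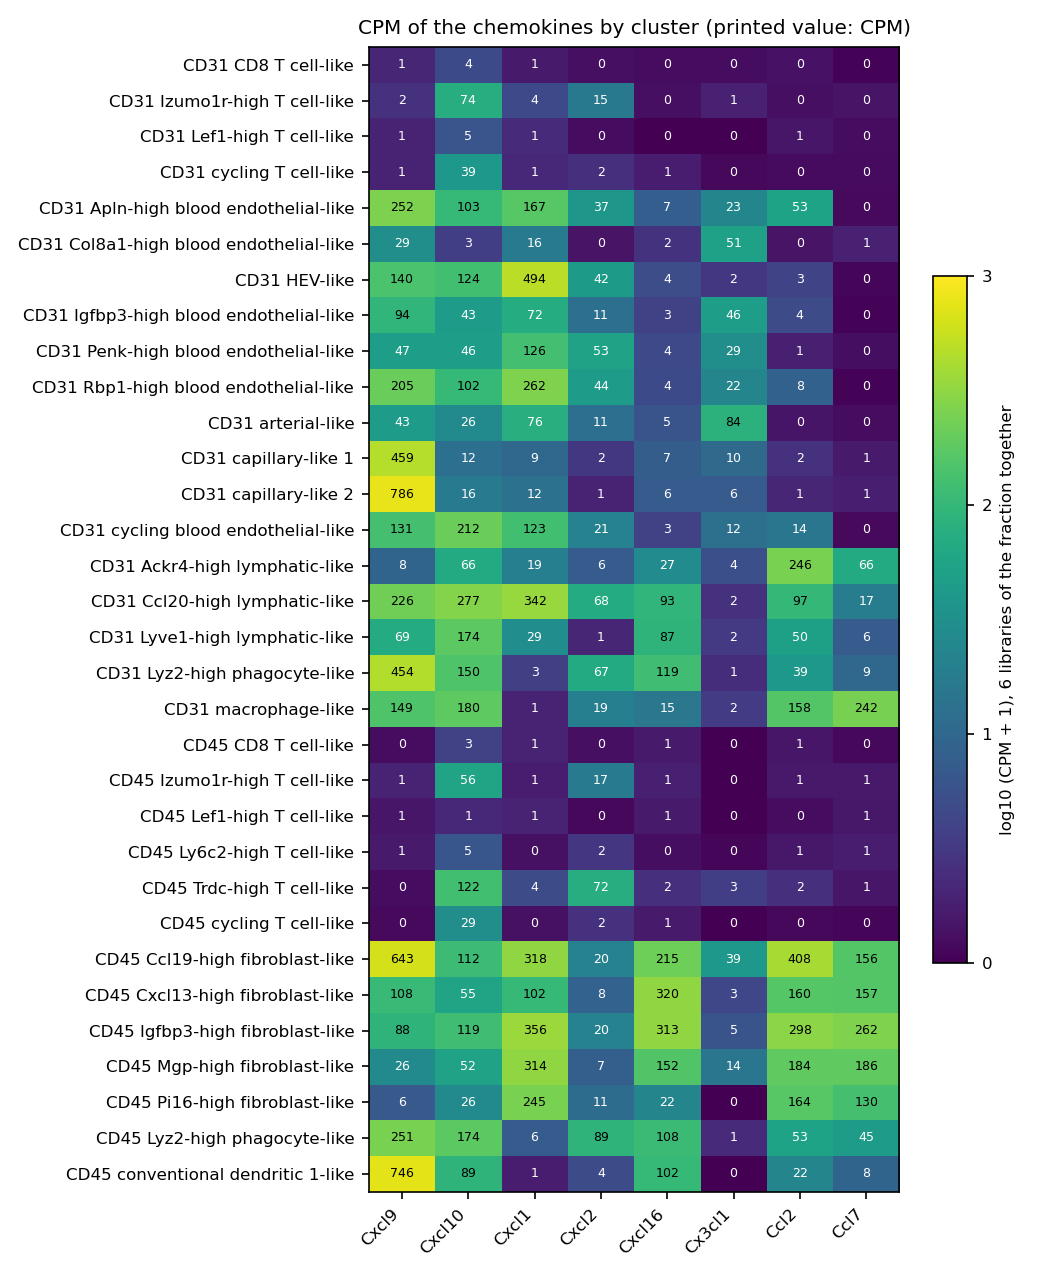
Each row is a cluster of the T cell-like, endothelial, fibroblast-like or phagocyte-like classes with its fraction, each column a chemokine, and colour gives log10 of CPM + 1 with the UMIs of the 6 libraries pooled, so that libraries with more cells of a cluster weigh more, and the pooled CPM is printed in the cell. Among these rows Cxcl9 is brightest in capillary-like 2, dendritic and Ccl19-high fibroblast-like cells, Cxcl1 in HEV-like cells, and Cxcl16 in Cxcl13-high and Igfbp3-high fibroblast-like cells.

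By class, the order of levels is given as the range over the 6 libraries of a fraction. For Cxcl9, capillary-like cells (442 to 762 CPM) overlapped phagocyte-like cells of the CD45 (141 to 789) and CD31 libraries (191 to 501), and lay above fibroblast-like (43.4 to 155) and HEV-like cells (59.1 to 234) without overlap. For Cxcl10 the ranges of lymphatic endothelial-like (72.8 to 286), phagocyte-like (36.5 to 310.0 in CD45), HEV-like (47.0 to 247) and fibroblast-like cells (32.8 to 138) all overlapped, so no class stood first. HEV-like cells led for Cxcl1 (307 to 660.2 CPM) but overlapped fibroblast-like cells (86.2 to 454). Cxcl16 fell in steps, from migratory dendritic-like (606 to 785 in CD45) to fibroblast-like (175 to 311), phagocyte-like (79.3 to 122 in CD45) and lymphatic endothelial-like cells (47.2 to 76.04). Neighbours in this order did not overlap, but phagocyte-like cells of the CD31 libraries (75.8 to 133) just overlapped lymphatic endothelial-like cells. Cx3cl1 stood at 60.1 to 115 CPM in arterial-like cells, which overlapped Igfbp3-high (20.5 to 72.8) and Col8a1-high blood endothelial-like cells (32.2 to 66.6) and lay above the 11.5 to 43.2 CPM of blood endothelial-like cells as a whole. Fibroblast-like and lymphatic endothelial-like cells overlapped for Ccl2 (114 to 281 and 67.5 to 255 CPM) but not for Ccl7 (104 to 269.7 and 12.4 to 64.5 CPM).

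In what follows, values are listed for the Cre-negative and then the Cre-positive library, at vehicle, day 3 and day 7. Within a label, log2 ratios of CPM carry 95% intervals from the UMI counts. These cover counting error only and not the spread between cells or between mice. Each UMI is taken as independent, so the intervals are too narrow where few cells hold most of a gene's UMIs. Tests of a treatment use edgeR's quasi-likelihood test over the 6 libraries, with label and treatment as terms and Benjamini-Hochberg adjustment over all genes tested at 0.05. The 8 genes gave 37 gene and class pairs that could be tested in the 5 classes fitted; Ccl7 was too low in HEV-like and blood endothelial-like cells, and Cx3cl1 in phagocyte-like cells. At day 3, 2 of the 37 pairs were called, with 15 at an unadjusted p under 0.05. At day 7 none were called (4 unadjusted), and by label none were called (10 unadjusted). Over all genes, edgeR's unadjusted p was under 0.05 as follows, in HEV-like, blood endothelial-like, lymphatic endothelial-like, fibroblast-like and phagocyte-like cells. Day 3 gave 2486 of 11672, 3631 of 15005, 685 of 13269, 4744 of 15498 and 1102 of 10668. Day 7 gave 369, 372, 91, 1035 and 342, and the label 499, 394, 335, 1398 and 1099. HEV-like cells are part of the blood endothelial-like class, so the pairs of these classes overlap.

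The counts of calls are likewise read against all genes tested. At day 3 the test called 1.88% of 11672 genes in HEV-like cells (0.951% as higher), 0% of 15005 in blood endothelial-like cells, 0% of 13269 in lymphatic endothelial-like cells, 12.1% of 15498 in fibroblast-like cells and 0.0562% of 10668 in phagocyte-like cells (0.0469% as higher). At day 7 it called 0.252% of genes in fibroblast-like cells and 0% in the other 4 classes. By label it called 0.0343% in HEV-like, 0.00666% in blood endothelial-like and 0.00754% in lymphatic endothelial-like cells, and 0% in fibroblast-like and phagocyte-like cells. These shares rest on single libraries: leaving out each in turn moved the day 3 count from 219 to between 12 (without Cre-negative day 3) and 1098 (without Cre-negative vehicle) in HEV-like cells, from 1870 to between 0 (without Cre-negative day 3) and 2961 (without Cre-positive vehicle) in fibroblast-like cells, and from 6 to between 10 (without Cre-negative day 3) and 258 (without Cre-negative day 7) in phagocyte-like cells. A count of 0 here is no sign of equal levels: in blood endothelial-like cells 3631 genes had an unadjusted p under 0.05 at day 3, and DESeq2 called 822.

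Cxcl10, the interferon-inducible Cxcr3 ligand, was higher at day 3 in HEV-like cells. It stood at 64.4 and 101 CPM at vehicle, 247 and 215 at day 3, and 47.0 and 69.9 at day 7. Both day 3 libraries lay above all 4 others, and each day 7 library lay below the vehicle library of its label. The log2 ratio of day 3 over vehicle was 1.94 (1.72 to 2.16) in the Cre-negative and 1.09 (0.91 to 1.27) in the Cre-positive libraries. Averaged over labels, the rise of Cxcl10 on the log2 scale was 1.51 (SE 0.20, adjusted p = 0.0148) in edgeR's quasi-likelihood test, 1 of 7 family members tested in a class where 0.951% of genes were called higher. Without the Cre-negative day 3 library the change was 1.14 with an adjusted p of 0.0671 in edgeR's quasi-likelihood test, above the threshold of 0.05.

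Cxcl10 was detected in a minority of HEV-like cells. At vehicle 9.17% and 8.38% of the cells had a UMI of it, at day 3 22.7% and 15.3%, and at day 7 9.16% and 11.5%; the cells' median depth was 8639 to 10541 UMIs. Thinning every cell to 1000 UMIs, which left out no cell, gave 2.66% and 3.24% at vehicle, 10.8% and 7.10% at day 3 and 2.29% and 3.97% at day 7. Both day 3 libraries were highest on either measure, and B cell-like cells of the CD31 libraries, at median depths of 2930.5 to 3655 UMIs, had at most 1.13% of cells with a UMI. A small number of cells carried much of the signal: the top 1% of HEV-like cells held 28.5% to 58.9% of a library's Cxcl10 UMIs.

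In all blood endothelial-like cells Cxcl10 stood at 42.4 and 58.1 CPM at vehicle, 90.2 and 142 at day 3, and 34.3 and 65.4 at day 7, again highest at day 3 in both labels. The edgeR quasi-likelihood change was 1.25 (SE 0.12, adjusted p = 0.0673) and did not pass the threshold, while DESeq2 gave an adjusted p of 1.67e-09. The makeup of the class moved as well: cycling blood endothelial-like cells were 2.01% and 0.813% of it at vehicle, 7.43% and 10.05% at day 3, and 0.651% and 2.53% at day 7. Within them Cxcl10 was 75.7 and 208, 100.3 and 354, and 22.5 and 38.9 CPM, also highest at day 3 in both labels. Within the class the labels parted: blood endothelial-like cells other than HEV-like stood at 38.2 and 48.8 CPM at vehicle, 42.8 and 127 at day 3, and 27.7 and 64.5 at day 7. There the Cre-positive ratio of day 3 over vehicle was 1.38 (1.27 to 1.5001) and the Cre-negative ratio 0.16 (0.00 to 0.32). A test of that difference was not possible with 1 library per group. The top 1% of these cells held 74.0% to 82.1% of a library's Cxcl10 UMIs, with 257 in 1 cell at Cre-positive day 3. By label, Cxcl10 in blood endothelial-like cells was higher in the Cre-positive library in every pair. Its log2 difference was 0.68 (SE 0.10, adjusted p = 0.571) in edgeR's quasi-likelihood test, which is not a call.

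Lymphatic endothelial-like cells held Cxcl10 at 143 and 143 CPM at vehicle, 150.03 and 286 at day 3, and 72.8 and 176 at day 7, with the Cre-positive day 3 library above the rest. In CD45 phagocyte-like cells it stood at 68.4 and 36.5 CPM at vehicle, 310.0 and 101 at day 3, and 219.9 and 104 at day 7, and the edgeR quasi-likelihood change at day 3 was 1.89 (SE 0.25, adjusted p = 0.0994). The Cre-negative day 3 library was the highest there, and the Cre-positive day 3 and day 7 libraries were nearly level.

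In fibroblast-like cells Cxcl10 was lower at day 3 than at vehicle, at 101 and 126 CPM at vehicle, 32.8 and 61.6 at day 3, and 138 and 59.4 at day 7. The ratios of day 3 over vehicle were -1.63 (-1.78 to -1.47) and -1.03 (-1.14 to -0.91), and the edgeR quasi-likelihood change was -1.24 (SE 0.44, adjusted p = 0.109), not a call in a class where 12.1% of genes were. The makeup of this class differed between libraries: Cxcl13-high cells were 58.7% and 63.0% of it at day 3 and at most 9.54% in the other libraries. Within Igfbp3-high fibroblast-like cells Cxcl10 was 139.9 and 177, 19.98 and 90.2, and 157 and 68.8 CPM, and within Mgp-high cells it was 37.2 and 93.1, 44.2 and 36.9, and 34.8 and 56.9 CPM, so the first cluster was lower at day 3 in both labels and the second in the Cre-positive label alone. Within Cxcl13-high cells, most of the class at day 3, Cxcl10 ranged from 13.4 to 352 CPM over the 6 libraries. Their direction at day 3 is not given here, and the part of the shift in makeup was not tested. T cell-like cells also held some Cxcl10, 17.5 to 23.6 CPM in the CD45 libraries, reaching 52.0 to 176 CPM in Trdc-high cells.

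**Figure D3:**
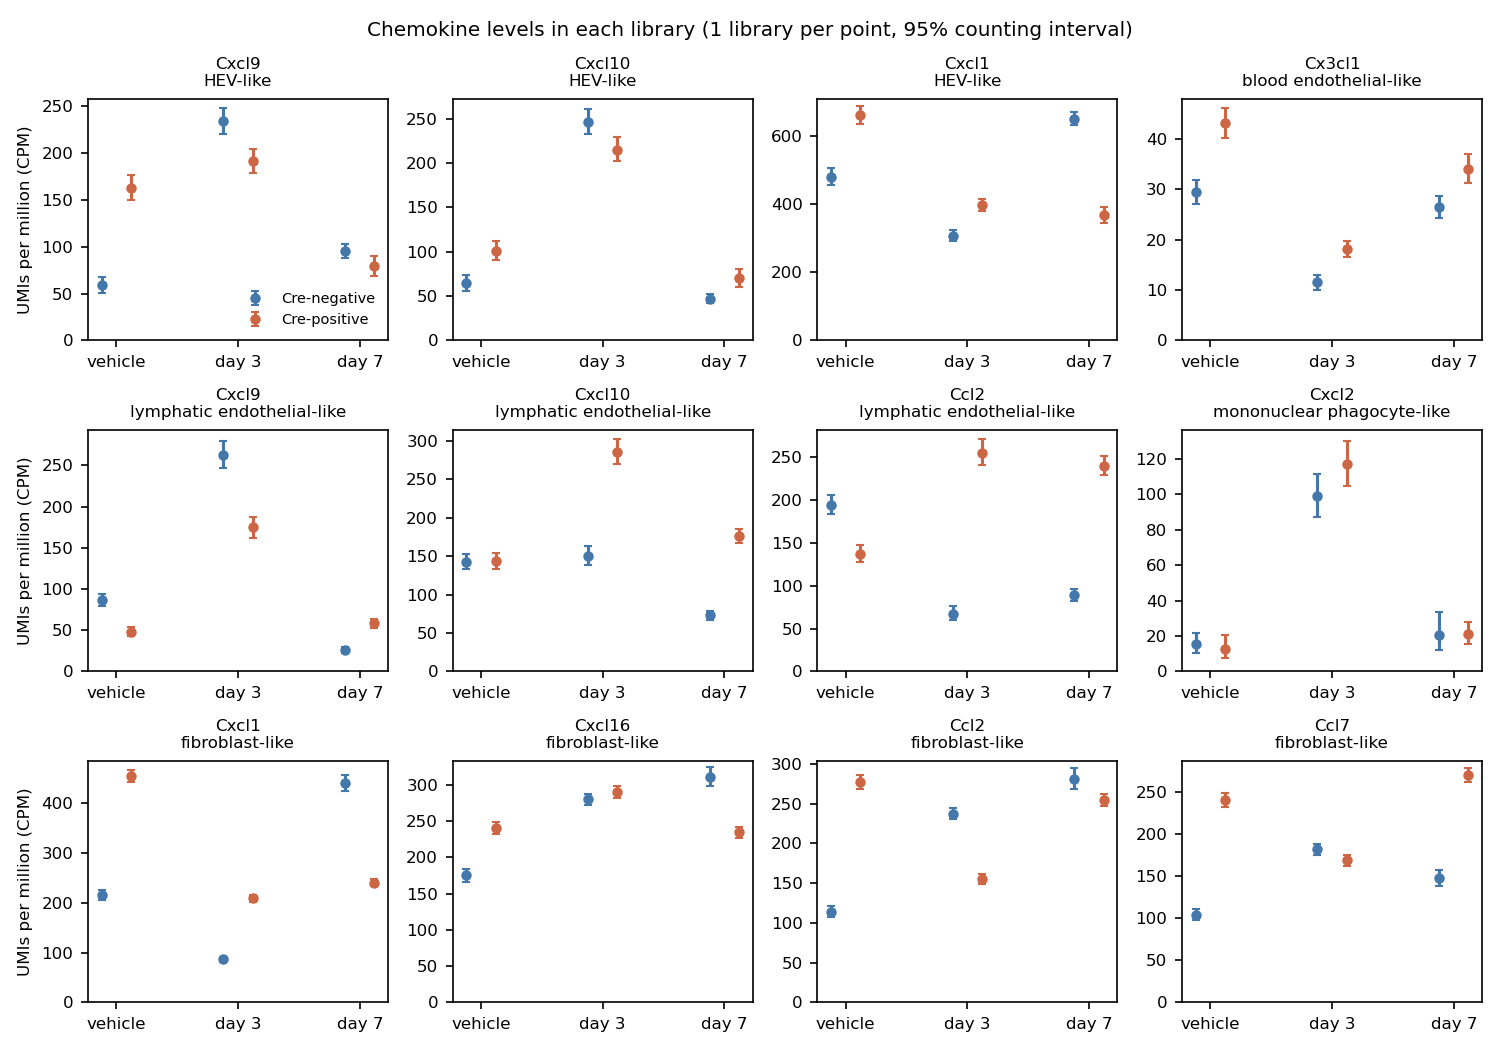
Each panel gives the CPM of a chemokine in a class, with 1 point per library (blue Cre-negative, orange Cre-positive) and 95% Poisson intervals of the UMI count, at vehicle, day 3 and day 7; axes start at 0 and differ between panels. Cxcl10 in HEV-like cells and Cxcl2 in phagocyte-like cells have both day 3 points above the other 4, and Cx3cl1 in blood endothelial-like cells has both below.

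Cxcl9, the other Cxcr3 ligand of this locus, was not called in any class. In HEV-like cells it stood at 59.1 and 163 CPM at vehicle, 234 and 191 at day 3, and 95.1 and 79.0 at day 7. Both day 3 libraries were again the highest, but the Cre-positive vehicle library was close to the Cre-positive day 3 library, and the edgeR quasi-likelihood change was 0.99 (SE 0.36, adjusted p = 0.163). It ran from 0.22 without the Cre-negative vehicle library to 2.002 without the Cre-positive vehicle library, where the adjusted p was 4.51e-05 in edgeR's quasi-likelihood test. Cxcl9 had a UMI in 11.8% and 15.1% of HEV-like cells at vehicle, in 26.3% and 26.2% at day 3 and in 9.87% and 19.05% at day 7. The top 1% of HEV-like cells held 44.0% to 76.8% of a library's Cxcl9 UMIs. The highest count in 1 cell was 207 at Cre-positive vehicle, 236 at Cre-negative day 3 and 409 at Cre-negative day 7.

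Lymphatic endothelial-like cells held Cxcl9 at 86.4 and 48.1 CPM at vehicle, 263 and 175 at day 3, and 25.8 and 58.3 at day 7. The ratios of day 3 over vehicle were 1.61 (1.45 to 1.76) and 1.86 (1.66 to 2.07), and both day 3 libraries exceeded all others. Few cells carried these levels: the top 1% held 53.4% to 82.7% of a library's Cxcl9 UMIs, with up to 312 and 168 in 1 cell at day 3. The edgeR quasi-likelihood change was 1.72 (SE 0.41, adjusted p = 0.627) in a class with 0 calls. Ccl20-high cells held 83.8% of the class's Cxcl9 UMIs, at 248 and 123, 688 and 493, and 51.0 and 153 CPM.

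Capillary-like cells, with 9837 of the 43925 Cxcl9 UMIs, held it at 673 and 492 CPM at vehicle, 556 and 481 at day 3, and 442 and 762 at day 7. The ratios of day 3 over vehicle were -0.28 (-0.36 to -0.19) and -0.03 (-0.15 to 0.08), the first below 0 and the second with an interval that included 0, and at day 7 the labels were opposed, at -0.61 (-0.74 to -0.48) and 0.63 (0.53 to 0.73). The mix of the capillary-like clusters differed. Capillary-like 2, the richer in Cxcl9, had 369 and 351 cells at vehicle, 906 and 501 at day 3, and 137 and 276 at day 7. Capillary-like 1 had 781 and 699, 809 and 551, and 418 and 496. The part of this mix was not tested. In blood endothelial-like cells as a whole the edgeR quasi-likelihood change at day 3 was 0.13 (SE 0.26, adjusted p = 0.788). CD45 phagocyte-like cells stood at 141 and 414 CPM at vehicle, 789 and 262 at day 3, and 518 and 429 at day 7, so the Cre-negative library was higher at day 3 than at vehicle and the Cre-positive library lower, with an edgeR quasi-likelihood change of 0.89 (SE 0.66, adjusted p = 0.67). Conventional dendritic 1-like cells, rich in Cxcl9, were 25.5% and 36.1% of this class at vehicle, 18.9% and 15% at day 3, and 36.3% and 24.1% at day 7. The opposition lay in them, at 207 and 836, 1397 and 472, and 489 and 895 CPM, while the rest of the class, Lyz2-high phagocyte-like cells, was above vehicle at day 3 in both labels, at 94.5 and 5.99, 516 and 197, and 549 and 157 CPM, with 4 UMIs behind the Cre-positive vehicle level. Opposite directions at day 3 were also found in fibroblast-like cells, at 66.3 and 149 CPM at vehicle, 97.9 and 106 at day 3, and 155 and 43.4 at day 7.

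Cxcl1, the neutrophil attractant most abundant in venule cells, was lower at day 3 than at vehicle in both labels in blood endothelial-like and fibroblast-like cells, though it was called in neither. In HEV-like cells it stood at 479.7 and 660.2 CPM at vehicle, 307 and 397 at day 3, and 650.1 and 367 at day 7. Both day 3 levels lay below both vehicle levels, the Cre-positive day 7 level lay between the day 3 levels, and the edgeR quasi-likelihood change was -0.70 (SE 0.30, adjusted p = 0.219). Between 33.6% and 54.5% of HEV-like cells had a Cxcl1 UMI, against at most 0.833% of B cell-like cells, and HEV-like cells held 55.0% of the Cxcl1 UMIs of blood endothelial-like cells.

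All blood endothelial-like cells held Cxcl1 at 148 and 289 CPM at vehicle, 107 and 151 at day 3, and 296 and 123 at day 7, with ratios of day 3 over vehicle of -0.46 (-0.54 to -0.38) and -0.94 (-0.99 to -0.88) and an edgeR quasi-likelihood change of -0.69 (SE 0.53, adjusted p = 0.47), which became 0.14 without the Cre-positive vehicle library. Fibroblast-like cells held it at 215 and 454 CPM at vehicle, 86.2 and 208 at day 3, and 441 and 240.4 at day 7. The Cre-negative day 3 library was the lowest, and each day 3 library was below the vehicle library of its label. The ratios were -1.32 (-1.42 to -1.22) and -1.12 (-1.18 to -1.06) and the edgeR quasi-likelihood change was -1.17 (SE 0.48, adjusted p = 0.153), not a call. Igfbp3-high cells, rich in Cxcl1, were 36.0% and 56.7% of fibroblast-like cells at vehicle, 11.3% and 13.7% at day 3, and 68.9% and 57.5% at day 7. The part of this shift was not tested. At day 7 the labels parted: over vehicle, Cxcl1 was higher in the Cre-negative and lower in the Cre-positive library in both classes. HEV-like cells, the richest in Cxcl1, also moved apart as a share of blood endothelial-like cells, from 8.27% and 9.40% at vehicle to 17.5% and 8.61% at day 7. The opposition was present among the other blood endothelial-like cells, at 85.1 and 209 CPM at vehicle, 47.0 and 104 at day 3, and 111 and 74.5 at day 7, as it was within HEV-like cells.

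Genes that are known to be induced by enzymatic tissue digestion varied in the same cells. The summed level of 19 immediate-early and heat-shock genes in fibroblast-like cells was 8732 and 15422 CPM at vehicle, 3821 and 7295 at day 3, and 13099.9 and 9103 at day 7. In edgeR's quasi-likelihood test at day 3, 6 of these 19 (where 12.1% of all genes were called), among them Egr1, Fosb and Dusp1, were called lower and 0 higher, with a median log2 change of -1.06 against -0.02 over all genes tested. In HEV-like cells the sum was 13455 and 12009.6 CPM at vehicle, 8827 and 8231 at day 3, and 11978 and 9309 at day 7, with 6 called lower (1.88% of all genes were called either way), among them Fos, Zfp36 and Egr1, 1 (Hsp90aa1) called higher and a median of -0.65 against -0.01. The part of a digestion response in the chemokine levels was not tested.

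Cxcl2, which also binds Cxcr2, was the rarer partner in endothelial cells and carried the second call, in CD45 phagocyte-like cells. It stood there at 15.3 and 12.9 CPM at vehicle, 98.8 and 117 at day 3, and 20.8 and 21.1 at day 7. Both day 3 libraries lay above the other 4, which were between 12.9 and 21.1 CPM. The ratios of day 3 over vehicle were 2.69 (2.15 to 3.28) and 3.18 (2.48 to 3.97), and averaged over labels the rise of Cxcl2 on the log2 scale was 2.93 (SE 0.23, adjusted p = 0.0177) in edgeR's quasi-likelihood test, in a class where 0.0469% of genes were called higher. When barcodes removed for a high doublet score were kept, the change was 2.37 with an adjusted p of 0.0661.

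Few cells carried this signal. The class held 91 to 254 cells per library, and a Cxcl2 UMI was found in 3.43% and 3.09% of them at vehicle, in 5.51% and 15.0% at day 3 and in 3.30% and 5.00% at day 7. The Cre-positive day 3 library was also the deepest, at a median of 16541.5 UMIs per cell against 8401 to 13316 in the others; after thinning to 1000 UMIs the shares were 1.47% and 0% at vehicle, 3.15% and 7.50% at day 3 and 0% and 2.73% at day 7. B cell-like cells of the CD45 libraries had a Cxcl2 UMI in at most 0.205% of cells, at median depths of 2504 to 4281 UMIs. Lyz2-high phagocyte-like cells held 97.6% of the class's Cxcl2 UMIs, at 25.9 and 25.5, 143 and 146, and 42.8 and 32.7 CPM. The 6 neutrophil markers summed to 38.7 and 129.6 CPM in the class at day 3, against 34.0 and 41.1 at vehicle and 827 and 26.3 at day 7, where the Cre-positive sum at day 3 was above its vehicle; Retnlg and Ly6g were at 0 in every library but Cre-negative day 7, and the part of neutrophil RNA in the Cxcl2 level was not tested. Phagocyte-like cells of the CD31 libraries, a separate sort, held Cxcl2 at 61.7 and 51.1 CPM at vehicle, 49.8 and 81.9 at day 3, and 1.38 and 31.9 at day 7, without a day 3 excess over vehicle in the Cre-negative label.

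Neutrophil-like cells had the highest level of any class but were very few, 4 to 29 per CD45 library, with Cxcl2 at 4828 and 484 CPM at vehicle, 10747 and 2150.4 at day 3, and 413 and 4730.0 at day 7. Blood endothelial-like cells held Cxcl2 at 19.7 and 42.8 CPM at vehicle, 7.70 and 32.0 at day 3, and 32.3 and 25.97 at day 7. The Cre-negative day 3 library was the lowest, and the edgeR quasi-likelihood change at day 3 was -0.68 (SE 0.53, adjusted p = 0.475). In HEV-like cells the levels were 51.1 and 39.3, 12.2 and 45.3, and 55.6 and 47.9 CPM, where again the Cre-negative day 3 library alone was low; the edgeR quasi-likelihood change there was -0.72 (SE 0.45, adjusted p = 0.392). By label, Cxcl2 in blood endothelial-like cells differed by 0.93 (SE 0.45, adjusted p = 1) in edgeR's quasi-likelihood test.

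Among the transmembrane members, Cx3cl1, which holds Cx3cr1-bearing phagocytes to vessel walls, was lower in blood endothelial-like cells at day 3, at 29.5 and 43.2 CPM at vehicle, 11.5 and 18.1 at day 3, and 26.5 and 34.1 at day 7. Both day 3 libraries lay below the other 4. The ratios of day 3 over vehicle were -1.36 (-1.58 to -1.14) and -1.25 (-1.41 to -1.09), nearly equal in the labels, and at day 7 they were -0.16 (-0.32 to 0.01) and -0.34 (-0.49 to -0.18). The edgeR quasi-likelihood change at day 3 was -1.23 (SE 0.13, adjusted p = 0.0673), not a call in a class with 0 of 15005, while DESeq2 gave an adjusted p of 3.08e-06. The clusters of the class differed in their shares: Igfbp3-high cells, which held more Cx3cl1 UMIs (1277) than arterial-like cells (691), were 24.9% and 29.8% of it at vehicle and 10.8% and 18.5% at day 3, and capillary-like 2 cells, with little Cx3cl1, were 9.03% and 8.92% and then 23.2% and 10.1%. Within the arterial-like and Igfbp3-high clusters the day 3 libraries were the lowest: Cx3cl1 measured 102 and 115, 60.1 and 62.2, and 82.6 and 112 CPM among arterial-like cells, and 41.3 and 72.8, 20.5 and 24.8, and 48.2 and 54.0 CPM among Igfbp3-high blood endothelial-like cells. The ratios of day 3 over vehicle were -0.76 (-1.19 to -0.34) and -0.89 (-1.27 to -0.50) in the first, smaller than in the class, and -1.01 (-1.50 to -0.55) and -1.56 (-1.86 to -1.26) in the second. Fibroblast-like cells, with 13.3% of the Cx3cl1 UMIs, held only 4.57 to 10.4 CPM. Their ratios over vehicle were -0.43 (-0.89 to 0.04) and 0.65 (0.20 to 1.12) at day 3. At day 7 these ratios were 0.37 (-0.15 to 0.88) and 1.19 (0.76 to 1.62), so only the Cre-positive intervals left out 0.

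Cxcl16, the Cxcr6 ligand, differed less between libraries. In fibroblast-like cells it stood at 175 and 240.1 CPM at vehicle, 279.8 and 290.2 at day 3, and 311 and 234 at day 7, with the lowest level in the Cre-negative vehicle library. Its ratios of day 3 over vehicle were 0.68 (0.59 to 0.76) and 0.27 (0.21 to 0.34) and the edgeR quasi-likelihood change was 0.49 (SE 0.24, adjusted p = 0.21). Between 50.1% and 84.4% of fibroblast-like cells had a Cxcl16 UMI. Within Cxcl13-high cells, which made up most of the class at day 3, it was 272 to 325 CPM over the 6 libraries. CD45 migratory dendritic-like cells, which carry antigen from skin to node, held 769 and 606 CPM at vehicle, 648 and 745 at day 3, and 669.7 and 785 at day 7, and those of the CD31 libraries held 547 to 751 CPM. Blood endothelial-like cells had little of it, at 3.09 to 5.26 CPM.

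The Ccr2 ligands Ccl2 and Ccl7 varied strongly between libraries, and at day 3 the labels went opposite ways in fibroblast-like cells. Ccl2 in fibroblast-like cells stood at 114 and 277 CPM at vehicle, 237 and 155 at day 3, and 281 and 255 at day 7. The Cre-negative vehicle library was the lowest, and the ratios of day 3 over vehicle were opposite, 1.06 (0.96 to 1.16) and -0.83 (-0.91 to -0.76). Averaged over labels the edgeR quasi-likelihood change was 0.09 (SE 0.43, adjusted p = 0.913). Ccl7 followed the same order at vehicle and day 3, at 104 and 239.7 CPM at vehicle, 182 and 169 at day 3, and 148 and 269.7 at day 7, with ratios of day 3 over vehicle of 0.80 (0.70 to 0.91) and -0.51 (-0.58 to -0.43) and an edgeR quasi-likelihood change of 0.21 (SE 0.32, adjusted p = 0.697). At day 7 Ccl7 was above vehicle in both labels, with ratios of 0.50 (0.37 to 0.63) and 0.17 (0.11 to 0.24). The day 3 directions differed between the clusters of this class, whose makeup shifted to Cxcl13-high cells as given for Cxcl10. Within Mgp-high cells Ccl2 was 73.2 and 192, 362 and 113, and 395 and 139 CPM, opposed at day 3 as in the class, but within Igfbp3-high cells it was 137 and 375, 45.3 and 272, and 279 and 331 CPM, below vehicle at day 3 in both labels. Ccl7 was 90.7 and 237, 195 and 221, and 133 and 218 CPM within Mgp-high cells and 120.3 and 314, 81.5 and 219, and 165 and 342 CPM within Igfbp3-high cells, where it was also below vehicle at day 3 in both labels. Within Cxcl13-high cells, 47 to 885 per library, Ccl7 was above vehicle at day 3 in both, at 34.0 and 69.2, 184 and 155, and 77.4 and 97.2 CPM. Ccl2 in Cxcl13-high cells ranged from 64.1 to 234 CPM over the 6 libraries, and its direction there is not given here.

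Lymphatic endothelial-like cells held Ccl2 at 194 and 137 CPM at vehicle, 67.5 and 255 at day 3, and 89.0 and 239.9 at day 7. Here the opposition ran the other way, with ratios of day 3 over vehicle of -1.52 (-1.73 to -1.33) and 0.90 (0.76 to 1.04) and of day 7 over vehicle of -1.13 (-1.26 to -0.99) and 0.81 (0.69 to 0.94). The top 1% of these cells held 65.6% to 85.5% of the class's Ccl2 UMIs, so each library's level rested on few cells. Ackr4-high cells, the cluster richest in Ccl2, were 70.9% and 44.5% of the class at vehicle, 58.1% and 55.6% at day 3, and 44.5% and 63.8% at day 7. The part of this makeup in the Ccl2 levels was not tested. Within Ackr4-high cells Ccl2 was 274 and 153, 112 and 313, and 146 and 359 CPM, opposed in the same sense within the cluster. The edgeR quasi-likelihood change at day 3 was -0.36 (SE 0.50, adjusted p = 0.995).

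In blood endothelial-like cells Ccl2 was rare but higher in the Cre-positive library of every pair. It stood at 2.91 and 11.5 CPM at vehicle, 3.14 and 10.2 at day 3, and 2.53 and 3.63 at day 7. The label difference was 1.45 (SE 0.32, adjusted p = 1) in edgeR's quasi-likelihood test. In HEV-like cells it was 0.616 and 12.9 CPM at vehicle, 0.422 and 3.74 at day 3, and 0.937 and 3.66 at day 7, a difference of 2.95 (SE 0.54, adjusted p = 0.228). Neither was a call, and 97.7% of the Ccl2 UMIs of HEV-like cells in the Cre-positive vehicle library came from the top 1% of its cells, with 27 UMIs in 1 cell. In the other blood endothelial-like cells the top 1% held 96.3% to 100% of a library's Ccl2 UMIs, up to 92 in 1 cell, and a Ccl2 UMI was found in 0.507% and 0.589% of cells at vehicle, 0.375% and 1.24% at day 3 and 0.608% and 0.636% at day 7.

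**Figure D4:**
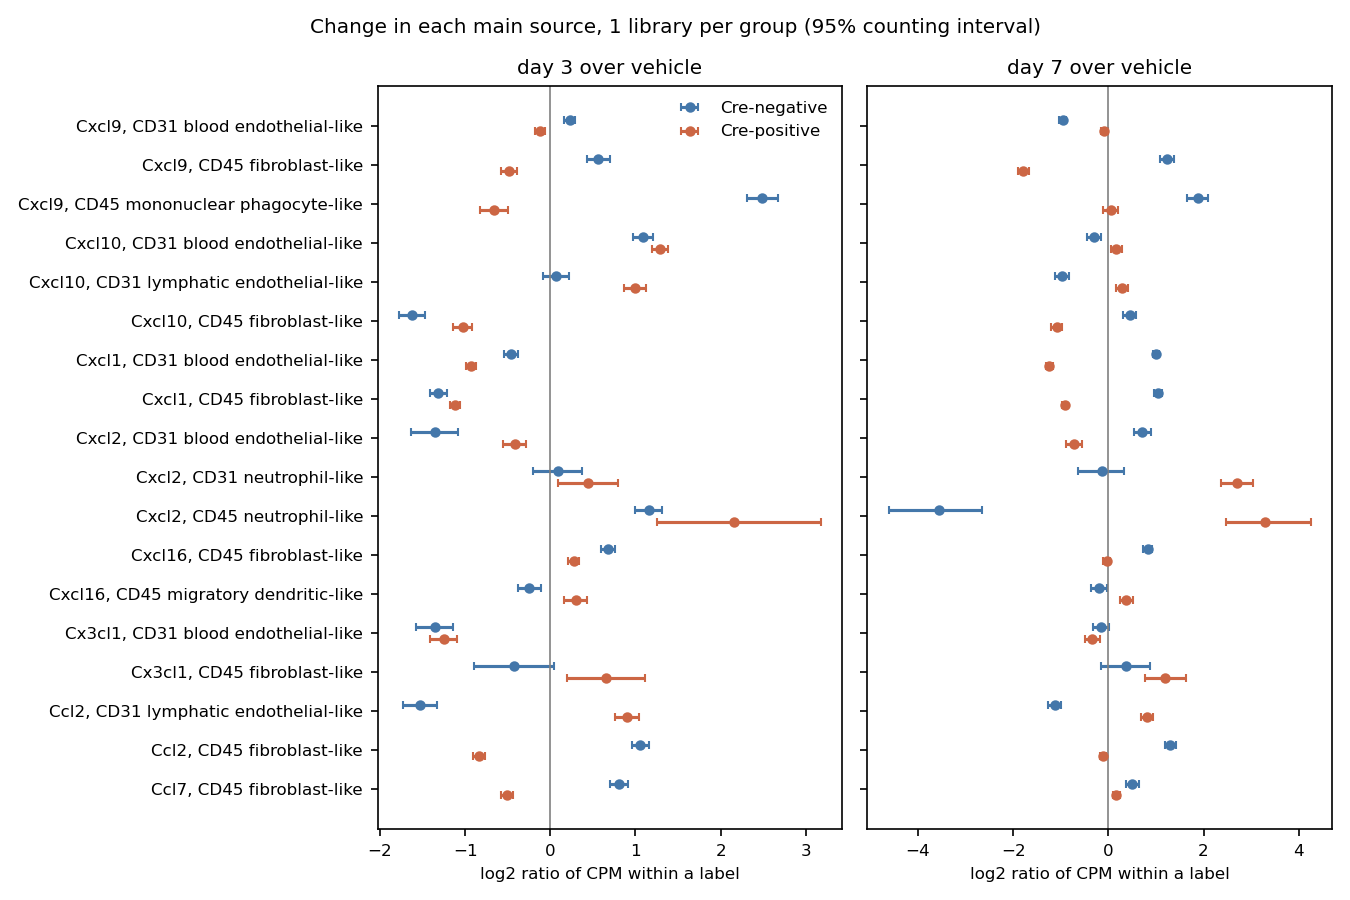
Points give the log2 ratio of day 3 (left) or day 7 (right) over vehicle within each label, with 95% counting intervals. Shown are the 18 pairs of a chemokine and a class within 1 fraction that held at least 10% of its UMIs. The axes differ between panels. Counting only intervals that leave out 0, at day 3 both labels are above 0 in 3 pairs and below 0 in 5, and at day 7 the labels lie on opposite sides in 11. The same counts over all genes were not made.

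A main source was a class within 1 fraction that held at least 10% of a gene's UMIs, which gave 18 pairs. CD31 and CD45 cells of a class were not joined. Cxcl2 and Cxcl10 in phagocyte-like cells and Cxcl10 in T cell-like cells are therefore not among the pairs. At day 3 the intervals of both labels lay above 0 in 3 pairs, Cxcl10 in blood endothelial-like, Cxcl2 in CD45 neutrophil-like and Cxcl16 in fibroblast-like cells. The neutrophil-like pair rested on 5 and 6 Cre-positive cells at vehicle and day 3, with 88.9% of the day 3 UMIs in 1 cell. Both intervals lay below 0 in 5 pairs, Cxcl10 in fibroblast-like cells, Cxcl1 in blood endothelial-like and fibroblast-like cells, and Cxcl2 and Cx3cl1 in blood endothelial-like cells. In 7 pairs the labels' intervals were on opposite sides, and in 3 an interval included 0. At day 7, 1 pair was above 0 in both labels, 1 was below 0 in both, 11 were opposite and 5 had an interval that included 0. The comparisons of day 3 and day 7 share their vehicle libraries. Shares of all genes in these classes, sorted in the same way, were not computed. The counts of pairs are therefore not a result about chemokines in particular.

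The receptors stood in the cell types known to use them. Over the libraries of the CD45 fraction with at least 20 cells of a class, the median level of Cxcr3 was 76.3 CPM in NK cell-like and 29.1 in T cell-like cells, that of Cxcr6 was 62.2 in T cell-like cells, that of Cx3cr1 was 109.5 in phagocyte-like cells, and that of Ccr2 was 438 in NK cell-like and 235 in phagocyte-like cells. Cxcr2 had 714 and 943 CPM in the 2 CD45 libraries with at least 20 neutrophil-like cells. The decoy receptor Ackr1 had a median of 57.0 CPM in blood endothelial-like and Ackr2 of 71.1 in lymphatic endothelial-like cells. Of the 6 receptors and decoys tested in fibroblast-like cells, 2 were called lower at day 3 by edgeR's quasi-likelihood test, which called 12.1% of all genes there, Ackr1 at -1.72 (SE 0.40, adjusted p = 0.04) and Ackr2 at -2.83 (SE 0.30, adjusted p = 0.00468), both from below 10 CPM; Ackr2 was also called lower at day 7, at -2.78 (SE 0.31, adjusted p = 0.0368). The sheddases Adam10 and Adam17, which release Cxcl16 and Cx3cl1 from the membrane, were called in none of the 5 classes.

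Known inducers and co-induced genes were read from lists in the same fits. Of 24 interferon-response genes tested in HEV-like cells, edgeR's quasi-likelihood test called 0 at day 3, with a median log2 change of 0.22 against -0.01 over all genes, and their summed level was 2928 and 2709 CPM at vehicle, 3284 and 3382 at day 3, and 2298 and 3127 at day 7. Of 18 NF-kB targets 1 was called higher and 3 lower, where 1.88% of all genes were called, with a median of -0.63. The gene called higher was the cytokine Il6, at 9.24 and 17.6 CPM at vehicle, 48.9 and 39.6 at day 3, and 11.1 and 9.51 at day 7 and a change of 1.71 (SE 0.28, adjusted p = 0.0283) by the same test. Those called lower were Birc3, at -1.39 (SE 0.22, adjusted p = 0.0262), Tnip1, at -1.26 (SE 0.24, adjusted p = 0.0418), and Nfkbiz, at -1.37 (SE 0.21, adjusted p = 0.023) in edgeR's quasi-likelihood test, all regulators of NF-kB signalling. In fibroblast-like cells, where 12.1% of all genes were called at day 3, the counts of both lists were below or near that background: of 24 interferon-response genes only Ifit2 was called, lower at day 3 at -1.14 (SE 0.29, adjusted p = 0.0475), and of 18 NF-kB targets Nfkb1 was called lower at -0.66 (SE 0.15, adjusted p = 0.0357) and Sele higher at 3.37 (SE 0.73, adjusted p = 0.0325) from at most 3.72 CPM, all in edgeR's quasi-likelihood test. No gene of either list was called in the other 3 classes at day 3, or in any class at day 7 or by label. Interferon gamma itself (Ifng), a known inducer of Cxcl9 and Cxcl10, stood mainly in NK cell-like cells, at 259.0 to 775 CPM in the CD45 libraries.

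Of 22 other chemokine genes listed, 13 could be tested in fibroblast-like cells and 1 was called at day 3, against 12.1% of all genes, the B cell attractant Cxcl13, at 1892 and 1966 CPM at vehicle, 6088 and 4918 at day 3, and 2527 and 2171 at day 7 and a change of 1.54 (SE 0.22, adjusted p = 0.011) in edgeR's quasi-likelihood test. Cxcl13-high cells were 58.7% and 63.0% of this class at day 3 and at most 9.54% in the other libraries. Levels of Cxcl13 within clusters are not given here, and the part of this shift was not tested. None of the 5, 8, 8 and 15 tested in HEV-like, blood endothelial-like, lymphatic endothelial-like and phagocyte-like cells was called. At day 7 and by label no gene of this list was called in any of the 5 classes.

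The genes most like each member were found by Pearson correlation of log levels over 130 sums of a class in a library, among 14220 genes; sums of 1 library share its depth and those of 1 class its cell type. Neighbours on a chromosome were among the nearest for Ccl2, which had Gm17268 (0.886), whose reads may be shared with it, Ccl7 (0.886) and Fn1 (0.849). Ccl7 had Ccl2 (0.886), Gm17268 (0.871) and Fzd1 (0.826). Cxcl10 had Vcam1 (0.698), Gbp2 (0.692) and its neighbour Cxcl9 (0.685), while Cxcl9 had Cfb (0.863), Pf4 (0.852) and Sult1a1 (0.840). For Cxcl1 they were Msrb3 (0.895), Mylk (0.889) and Tcf7l1 (0.884), and for Cxcl2 they were Tnfaip2 (0.778), Ptgs2 (0.721) and Nfkbia (0.721). These neighbours were less alike, at 0.377 between Cxcl1 and Cxcl2 against 0.768 between Cxcl1 and Cx3cl1 on another chromosome. Cxcl16 was most like Fmn1 (0.894), Adgrg6 (0.867) and Col27a1 (0.864), and Cx3cl1 like Slc27a3 (0.847), Fnbp1l (0.839) and Scube3 (0.839).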

How the data were processed

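Single-cell RNA of digested lymph nodes was counted in 12 libraries made with a 10x Genomics 3-prime kit, aiming for 10000 cells each. Per the file headers, the authors deposited raw UMI counts for each gene in each barcode, and the headers name Cell Ranger 4; the submitters' processing notes name Cell Ranger 7.0.1 and mm10. The annotation and the use of strand are not given in the sources used here.

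Kept barcodes had 1000 or more UMIs, 500 or more genes and no more than 10% of UMIs from mitochondrial genes. The automatic doublet threshold marked 0 to 3 barcodes in some libraries, so the barcodes of highest doublet score were removed at 0.8% per 1000 barcodes. Cells of each fraction were scaled to 10000 counts, and clustered (2000 variable genes, 30 principal components, 20 neighbours, Leiden resolution 1; scanpy 1.11.5) without the 8 chemokines, the gene lists and sex-linked genes. Clusters were named from markers in the list of cell type markers.

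UMI counts were summed per class and library. CPM carries exact Poisson intervals, ratios conditional binomial intervals and shares Clopper-Pearson intervals (95%, counting error only; a count of 0 allows up to 3 UMIs). edgeR 4.0.16 (quasi-likelihood, TMM scaling, default expression filter, Benjamini-Hochberg at 0.05) was fitted in classes with at least 20 cells in all 6 libraries of a fraction, with label and treatment as additive terms and 2 residual degrees of freedom, and DESeq2 1.42.0 was the alternative. Each SE given with an edgeR change is the absolute log2 change divided by the square root of the F statistic of its test. It was worked out from the test and not reported by the fit. The fibroblast-like fit was planned on CD31 libraries and made on CD45 libraries, where those cells were found. On simulated counts with HEV-like depths, 27% of genes changed by a fold of 2 were called, and 15% in each of the other 4 classes; at a fold of 4 it was 91% to 97%. False calls numbered 4 in HEV-like, 8 in lymphatic endothelial-like, 3 in phagocyte-like and 0 in blood endothelial-like and fibroblast-like cells. The simulated counts had a fixed dispersion of 0.05 for every gene, and unchanged genes had the same expected share of UMIs in every library. For genes that vary more between libraries, recovery and false calls were not simulated. All 8 genes are described; from each list the text names up to 3 called genes with the highest mean CPM, and the 3 genes most alike to each member. The members and lists were chosen with earlier results of these data known. Of the samples' columns 0 were unused, and an mRFP feature in some CD31 libraries was left out.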

Additional observations from a re-analysis of the deposited data

Results flagged for a closer look

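In 18 comparisons over vehicle of a chemokine in a main source, 7 at day 3 and 11 at day 7 with some pairs in both, the library of 1 label lay above its vehicle and that of the other label below it, with counting intervals that left out 0. The difference was not tested, since each label has 1 library per treatment. How often other genes of these classes were opposed in this way was not counted. Each value below is the log2 ratio over vehicle of the Cre-positive label minus that of the Cre-negative label.

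At day 3 the difference was -0.35 for Cxcl9 in blood endothelial-like, -1.05 in fibroblast-like and -3.15 in phagocyte-like cells. The last of these is the widest at that day, from ratios of 2.49 in the Cre-negative and -0.66 in the Cre-positive label. Within Lyz2-high cells of that class both labels were above vehicle, and the opposition lay in conventional dendritic 1-like cells. For Ccl2 it was 2.43 in lymphatic endothelial-like and -1.89 in fibroblast-like cells, so the labels were opposed in opposite senses in the 2 main sources of this gene. Ccl7, its neighbour, differed by -1.31 in fibroblast-like cells, and Cxcl16 by 0.54 in migratory dendritic-like cells.

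At day 7 Cxcl1 differed by -2.24 in blood endothelial-like and -1.95 in fibroblast-like cells, and Cxcl2 by -1.43 in blood endothelial-like cells. Cxcl2 in CD45 neutrophil-like cells differed by 6.84, from classes of 4 to 29 cells. Cxcl9 differed by -3.01 in fibroblast-like cells. Cxcl10 differed by 0.47 in blood endothelial-like, 1.27 in lymphatic endothelial-like and -1.53 in fibroblast-like cells. Ccl2 differed by 1.94 in lymphatic endothelial-like and -1.42 in fibroblast-like cells, and Cxcl16 by 0.57 in migratory dendritic-like cells. Day 3 and day 7 share their vehicle libraries, so these values are not independent.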

How the results depend on the processing

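No paired analysis was possible because each group is 1 library and all carry the same replicate number, so the number gives no block; the additive terms already estimate treatment within labels and label within treatments. Of 24 log2 changes from the fits, all 24 kept their direction and their side of the threshold with cells of at least 2000 UMIs and with free RNA subtracted; with high-scoring barcodes kept, 23 did, and Cxcl2 in phagocyte-like cells (2.37) did not. DESeq2 moved 4 past the threshold and using no filter on low counts moved 11, with no change of direction. Leaving out a library in turn gave 96 of 144 values on the same side, 36 newly past the threshold, 1 no longer past it (Cxcl10 in HEV-like cells, 1.14) and 11 reversed; where a group then had 1 library, that library was assumed to vary like the others. The day 3 ranges of the reversed changes were -2.06 to 0.20 for Cxcl2 in HEV-like cells, -0.25 to 0.49 for Cxcl9 and -1.26 to 0.14 for Cxcl1 in blood endothelial-like cells, -1.36 to 0.81 for Ccl2 in lymphatic endothelial-like cells, -0.72 to 1.04 for Ccl2 and -0.43 to 0.83 for Ccl7 in fibroblast-like cells, and -0.35 to 2.28 for Cxcl9 in phagocyte-like cells. Cxcl10 in HEV-like cells ran from 1.14 to 1.87 and Cxcl2 in phagocyte-like cells from 2.81 to 3.08. The other changes kept their direction when a library was left out; the ranges at day 3 were 0.22 to 2.002 for Cxcl9 and -1.05 to -0.28 for Cxcl1 in HEV-like cells, 1.11 to 1.40 for Cxcl10, -1.71 to -0.01 for Cxcl2 and -1.35 to -1.10 for Cx3cl1 in blood endothelial-like cells, 1.26 to 2.35 for Cxcl9 and 0.01 to 1.10 for Cxcl10 in lymphatic endothelial-like cells, -1.95 to -0.71 for Cxcl10, -1.78 to -0.59 for Cxcl1 and 0.16 to 0.88 for Cxcl16 in fibroblast-like cells, 1.45 to 2.20 for Cxcl10 in phagocyte-like cells. By label they were 2.29 to 3.78 for Ccl2 in HEV-like cells, 0.61 to 0.78 for Cxcl10, 0.40 to 1.61 for Cxcl2 and 1.15 to 1.89 for Ccl2 in blood endothelial-like cells.

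Counts of genes called, in the order day 3, day 7 and label, depended on the filter on low counts and on single libraries. With no filter they were 1148, 63 and 126 in HEV-like, 46, 3 and 11 in lymphatic endothelial-like and 391, 80 and 216 in phagocyte-like cells; in blood endothelial-like cells they were 986 at day 3 and 7 by label, and in fibroblast-like cells 177 at day 7 and 17 by label. DESeq2 called 41, 5 and 19 in phagocyte-like cells and 822, 1 and 21 in blood endothelial-like cells, 7 by label in HEV-like, 10 at day 3 and 1 at day 7 in lymphatic endothelial-like, and 148 at day 7 and 24 by label in fibroblast-like cells. With high-scoring barcodes kept the counts were 1 at day 3 and 2 at day 7 in lymphatic endothelial-like, 1 at day 7 and 1 by label in fibroblast-like and 0 at day 3 in phagocyte-like cells. Cells of at least 2000 UMIs gave 0 by label in lymphatic endothelial-like cells, and free RNA subtracted gave 21 at day 7 in fibroblast-like cells. Leaving out each library in turn gave 12 to 1098, 0 to 43 and 4 to 73 in HEV-like, 0 to 1743, 0 to 65 and 0 to 47 in blood endothelial-like, 0 to 92, 0 to 38 and 0 to 72 in lymphatic endothelial-like, 0 to 2961, 0 to 172 and 0 to 131 in fibroblast-like, and 10 to 258, 12 to 55 and 6 to 145 in phagocyte-like cells. The cause was not tested.

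The share of UMIs in the leading class moved with the barcodes kept. With high-scoring barcodes kept it was 48.0% for Cxcl9, 29.0% for Cxcl10, 43.6% for Cxcl1, 59.1% for Cxcl16 and 70.9% for Cx3cl1. With cells of at least 2000 UMIs it was 50.2% for Cxcl9, 31.2% for Cxcl2, 66.6% for Ccl2 and 84.9% for Ccl7. As a mean within the libraries of 1 fraction, another denominator, it was 75.98%, 47.9%, 78.1%, 50.6%, 73.4%, 91.9%, 95.7% and 95.9% for Cxcl9, Cxcl10, Cxcl1, Cxcl2, Cxcl16, Cx3cl1, Ccl2 and Ccl7. Depth limits the smallest classes: 4 to 29 neutrophil-like cells per CD45 library cannot show a difference between treatments.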

Other observations

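Cytokines that are known to induce these chemokines had sources of their own, by median level over the libraries with at least 20 cells of a class. Il1b stood at 737 CPM in CD45 phagocyte-like cells, and at 15921 and 20496 CPM in the CD45 libraries with at least 20 neutrophil-like cells. Tnf stood at 41.5 CPM in migratory dendritic-like cells, and Il6, a cytokine of stromal cells, at 32.6 CPM in fibroblast-like cells.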
